A study of Mus musculus with 10 samples.

Results

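Microglia are the resident macrophages of the brain, and 33 genes that mark them or their activation were followed in the hippocampus of Dp1Yey mice and control littermates. Every gene of the list that the array annotation gave at least 1 probe set of its own was used, where a probe set is a group of probes read as one value. All 33 genes were found, each with 1 such probe set, among the 19938 genes measured. None lay in the duplicated interval, so all were present in 2 copies in both groups. The list held 12 homeostatic receptors and identity genes, 4 complement genes, 12 genes of sensing and phagocytosis and 5 genes of the myeloid lineage or of leukocytes at large, and these roles were kept apart. The comparison asked whether genes of microglial identity and genes of microglial activity differed by the same amount.

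Whole hippocampi, left and right together, came from males of 16 weeks. The 5 Dp1Yey mice carried a segmental duplication of mouse chromosome 16 from Lipi to Zbtb21, which puts the genes of that interval at 3 copies. The duplication is present in every cell of the animal, microglia included. The 5 controls were littermates without the duplication. The labels give C57BL/6N as the background of both groups while the study's text gives C57BL/6J, and this was not settled. Each mouse gave 1 array.

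Microglia enter the embryonic brain from the yolk sac and renew themselves there. Under homeostasis they scan the tissue with fine processes, sense nucleotides and fractalkine from neurons through P2ry12 and Cx3cr1, and depend on signals through the receptor Csf1r. They make C1q, the first component of the complement cascade, which tags synapses and debris for removal, and Fc receptors, Tlr4 and Trem2 pass signals for uptake and inflammation. On activation, homeostatic receptors commonly fall while phagocytic and lysosomal genes rise, so the 2 groups of genes can move apart. The tissue here was bulk tissue, in which fewer cells of a type and less RNA per cell cannot be told apart, and neither can more cells and more RNA per cell.

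Values are log2 intensities made by robust multi-array average (RMA), and a difference is Dp1Yey minus control on that scale. Probe sets differ in how well they bind, so no gene's level was set against another's. Background was read from 1027 olfactory receptor genes, which the hippocampus hardly uses, and the floor was set at 5.44, so that 90% of their means lay under it. Of the 33 microglial genes 31 lay above it, and Gpr34 and Tlr4 did not. The arrays were not all alike. The interquartile range of the log2 values was 3.47 to 3.53 in Dp1Yey and 3.40 to 3.51 in controls, the array medians were 6.31 to 6.37 and 6.35 to 6.44, and control replicate 2 stood apart on the first principal component, with a score of 19.4 against -7.98 to 6.51 in the other arrays.

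The promoters of 4 members are shown first, one per role, because the list itself holds a regulator of myeloid genes whose recognition sequence can be looked for in them. PU.1, the product of Spi1, is the transcription factor that establishes the myeloid lineage, and it recognises a purine-rich sequence, the PU box. For each role the member of smallest p that had a promoter window is given. The window runs from 250 bases before to 50 after a transcript start given for the gene (GRCm38.p6). It is read 5′ to 3′ on the strand of the gene. That start need not be the outermost one, and the Laptm5 window begins at 130913066, inside a gene that starts at 130912890. Capitals mark the PU box GAGGAA or, where the box lies on the other strand, TTCCTC.
Siglech (chr7:55767934-55768233, plus strand): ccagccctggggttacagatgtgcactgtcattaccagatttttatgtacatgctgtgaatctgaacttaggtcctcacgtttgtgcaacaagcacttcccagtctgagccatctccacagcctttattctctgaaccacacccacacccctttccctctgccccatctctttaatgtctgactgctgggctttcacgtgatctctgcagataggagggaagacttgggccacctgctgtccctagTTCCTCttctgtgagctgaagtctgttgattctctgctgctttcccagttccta
C1qc (chr4:136892865-136893164, minus strand): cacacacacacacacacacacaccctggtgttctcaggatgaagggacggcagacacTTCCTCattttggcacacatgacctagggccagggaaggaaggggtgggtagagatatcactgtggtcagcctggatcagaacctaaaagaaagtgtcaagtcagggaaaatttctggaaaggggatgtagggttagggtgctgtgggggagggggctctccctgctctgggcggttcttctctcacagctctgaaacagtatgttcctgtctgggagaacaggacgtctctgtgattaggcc
Fcer1g (chr1:171234300-171234599, minus strand): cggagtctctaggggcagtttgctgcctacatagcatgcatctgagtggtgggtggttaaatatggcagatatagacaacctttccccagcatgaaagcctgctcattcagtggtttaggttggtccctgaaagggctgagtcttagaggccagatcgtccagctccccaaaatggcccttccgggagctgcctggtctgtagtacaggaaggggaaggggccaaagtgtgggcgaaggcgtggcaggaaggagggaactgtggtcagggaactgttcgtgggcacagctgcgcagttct
Laptm5 (chr4:130913066-130913365, plus strand): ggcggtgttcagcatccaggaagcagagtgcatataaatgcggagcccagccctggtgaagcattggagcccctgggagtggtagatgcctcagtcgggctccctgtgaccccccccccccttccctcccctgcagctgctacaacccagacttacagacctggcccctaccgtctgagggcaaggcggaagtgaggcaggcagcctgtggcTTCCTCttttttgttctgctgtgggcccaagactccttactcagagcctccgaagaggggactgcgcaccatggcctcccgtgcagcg
Siglech, C1qc and Laptm5 held 1 box each, and Fcer1g held none. In all 3 the box lay on the other strand, and that of C1qc was the only one of them that extended to the longer form GAGGAAGT. Windows were given for 24 of the 33 members, 29 windows in all, and 9 members, Ly96, Spi1 and Tyrobp among them, had none. GAGGAA was found on either strand in 17 of the 29 windows (58.6%), against 28.3% of all 32851 promoter windows of the table. Windows of the same gene can overlap, as those of Fcgr3 do, and counted by gene the box was found in 16 of the 24 members. The longer GAGGAAGT, which contains the shorter box, was found in 4 of the 29 (13.8%) and in 3.20% of all windows. These matches describe letters in a window and are not binding sites.

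Of the 33 genes, 27 had a higher mean in Dp1Yey and 6 a lower mean. Among all genes outside the interval 41.9% had a higher mean, and among those above the floor 46%. Genes were called with limma at an adjusted p under 0.05 over all 19938 genes, and 3 members passed, all higher: Ly96, Fcer1g and Laptm5. The background share of calls was 0.687% of all genes in the higher direction, or 0.394% of the genes outside the interval, and 0.11% in the lower direction, in which no member was called. At an unadjusted p under 0.05, 16 members were higher and 0 lower, with Tlr4, which lay under the floor, among the 16. At that level 8.45% of genes outside the interval were higher and 10.8% lower, and 10.7% of those above the floor were higher. In 9 members, C1qc, Siglech, Laptm5, Spi1, Fcer1g, Ly96, Cd68, Ly86 and Tyrobp, all 5 Dp1Yey mice lay above all 5 controls, as they did in 2.09% of genes outside the interval and 2.57% of those above the floor. The 6 members with a lower mean were Tmem119, Sall1, Selplg, P2ry13, Mertk and Irf8, and none of them had an unadjusted p under 0.05.

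**Figure D1:**
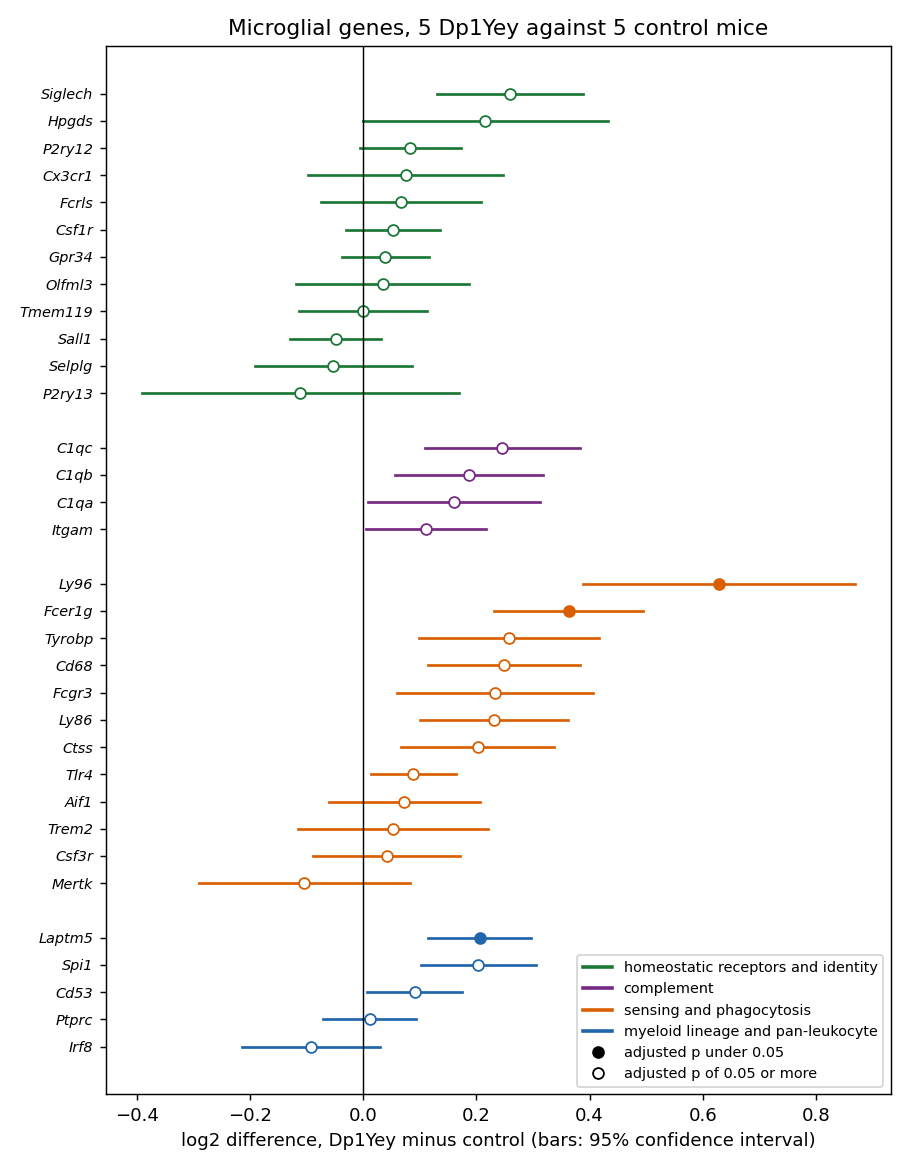
Difference between Dp1Yey and control for each of the 33 members, grouped by role. Points are log2 differences (Dp1Yey minus control, 5 mice each), horizontal bars their 95% confidence intervals from limma, and filled points the 3 called members Ly96 (0.63), Fcer1g (0.36) and Laptm5 (0.21). The sensing genes reach furthest to the right, while most homeostatic genes lie around 0.

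The sensing and phagocytosis genes held 2 of the 3 calls. Ly96 encodes MD-2, the small secreted protein that binds lipopolysaccharide and presents it to Tlr4. The log2 values of Ly96 were 8.49, 8.47, 8.31, 8.44 and 8.32 in Dp1Yey replicates 1 to 5 and 7.92, 7.33, 7.94, 7.68 and 8.03 in control replicates 1 to 5. The Dp1Yey mice lay close together and above every control, and the controls spread from 7.33 to 8.03, with replicate 2 lowest. The mean was 8.41 ± 0.086 in Dp1Yey and 7.78 ± 0.28 in controls (SD, n = 5 each). The difference was 0.63 (95% confidence interval 0.39 to 0.87; limma adjusted p = 0.0237), or 1.55-fold (1.31 to 1.83), the largest among the 33 members. Ly96 lies on chromosome 1 (GRCm38.p6, 16688456 to 16709605).

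Fcer1g encodes the common γ chain of the Fc receptors, which carries their activating signal, and lies on chromosome 1 from 171229572 to 171234349. Its values were 8.88, 8.96, 8.98, 8.89 and 8.79 in Dp1Yey and 8.54, 8.35, 8.66, 8.47 and 8.66 in controls. No Dp1Yey mouse fell within the range of the controls, and the difference was 0.36 (0.23 to 0.49; limma adjusted p = 0.0166), or 1.29-fold (1.17 to 1.41). Fcgr3, a receptor for IgG that needs this chain, differed by 0.23 (0.06 to 0.41; adjusted p = 0.162), and control replicate 5, at 8.27, lay among the Dp1Yey values of 8.08 to 8.35. Tyrobp, the adaptor DAP12 with the same signalling task for Trem2, differed by 0.26 (0.10 to 0.42; adjusted p = 0.112), with every Dp1Yey mouse above every control. Trem2 itself, the lipid receptor that signals through Tyrobp, differed by only 0.05 (-0.12 to 0.22; adjusted p = 0.718).

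Cd68, a glycoprotein of lysosomes and a widely used marker of phagocytic activity, stood next in order of p. Its values were 8.08, 8.13, 8.07, 8.02 and 8.06 in Dp1Yey and 8.01, 7.63, 7.84, 7.73 and 7.91 in controls. The lowest Dp1Yey mouse exceeded the highest control by a narrow margin, and the difference was 0.25 (0.11 to 0.38; adjusted p = 0.0839, or 0.0337 without control replicate 1). Ly86 (MD-1, the partner of the receptor RP105) differed by 0.23 (adjusted p = 0.0943) and Ctss, the lysosomal protease cathepsin S, by 0.20 (adjusted p = 0.134). For Ly86 every Dp1Yey mouse lay above every control, and for Ctss control replicate 2, at 9.51, exceeded the lowest Dp1Yey mouse at 9.50. Tlr4, the receptor that uses the product of Ly96, lay under the floor in both groups, at 5.17 to 5.28 in controls and 5.26 to 5.40 in Dp1Yey, so its difference of 0.09 (adjusted p = 0.201) was read at background level. The other sensing genes moved little: Aif1 (the actin-binding protein Iba1) by 0.07, Csf3r (the receptor of granulocyte colony-stimulating factor) by 0.04 and Mertk (a receptor for the uptake of dying cells) by -0.10. In all, 11 of the 12 sensing genes had a higher mean in Dp1Yey, and 8 had an unadjusted p under 0.05, Tlr4 at background level among them. The median difference was 0.22, against a median of -0.015 over all genes outside the interval.

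All 3 calls depended on single mice. Fcer1g lost its call without Dp1Yey replicate 2 (adjusted p = 0.0527), Dp1Yey replicate 3 (0.0582) or control replicate 4 (0.0588). Ly96 lost it without Dp1Yey replicate 1 (0.0711), 2 (0.0674), 3 (0.0544) or 4 (0.0562) or control replicate 4 (0.0677). With 1 mouse left out the differences ranged from 0.32 to 0.39 for Fcer1g and from 0.52 to 0.69 for Ly96. When the fit took in each array's interquartile range, a quantity that moved with the groups, the difference was 0.22 for Fcer1g (adjusted p = 0.154) and 0.38 for Ly96 (adjusted p = 0.246). In that fit Fcgr3 dropped to 0.03, Ly86 to 0.14 and Tyrobp to 0.15, and without control replicates 1 and 2 the difference of Fcgr3 was 0.11.

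The complement genes on the list were the 3 chains of C1q and Itgam, the α chain of complement receptor CR3 through which microglia take up tagged synapses. All 4 had a higher mean in Dp1Yey, all 4 had an unadjusted p under 0.05, and 0 passed the adjusted threshold. The 3 chain genes lie side by side on chromosome 4, C1qb from 136880126 to 136886200, C1qc from 136889801 to 136892936 and C1qa from 136895916 to 136898844, and their products assemble into 1 protein.

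C1qc read 9.29, 9.52, 9.27, 9.39 and 9.29 in Dp1Yey and 9.14, 9.04, 9.18, 8.94 and 9.24 in controls. C1qb read 10.51, 10.49, 10.50, 10.37 and 10.50 in Dp1Yey and 10.38, 10.05, 10.32, 10.29 and 10.39 in controls. C1qa read 8.80, 8.87, 8.73, 8.79 and 8.85 in Dp1Yey and 8.74, 8.36, 8.63, 8.72 and 8.79 in controls. The groups were separate for C1qc and overlapped for the other chains, and control replicate 2 was the lowest of the 10 mice for C1qb and C1qa. The differences were 0.25 for C1qc (0.11 to 0.38; adjusted p = 0.0924), 0.19 for C1qb (0.06 to 0.32; adjusted p = 0.144) and 0.16 for C1qa (0.01 to 0.31; adjusted p = 0.236). As folds these are 1.19, 1.14 and 1.12. Itgam differed by 0.11 (0.0044 to 0.22; adjusted p = 0.240). Without control replicate 2 the difference of C1qa was 0.09, and in the fit that took in the interquartile range the chains differed by 0.16 (C1qc), 0.10 (C1qb) and 0.06 (C1qa).

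The homeostatic receptors and identity genes showed a smaller and mixed picture. Of the 12, 8 had a higher mean in Dp1Yey and 4 a lower mean, 0 were called, 1 (Siglech) had an unadjusted p under 0.05, and their median difference was 0.05. Siglech, a sialic acid-binding receptor specific to microglia in the brain, read 7.98, 8.0, 8.06, 7.87 and 7.86 in Dp1Yey and 7.84, 7.72, 7.76, 7.53 and 7.62 in controls. Every Dp1Yey mouse lay above every control, although the lowest exceeded control replicate 1 only slightly, and the difference was 0.26 (0.13 to 0.39; adjusted p = 0.0662, or 0.0449 without control replicate 1). Hpgds, the prostaglandin D synthase of microglia, read 6.97, 6.80, 6.80, 6.76 and 6.83 in Dp1Yey and 6.93, 6.31, 6.79, 6.43 and 6.61 in controls. Its controls were widely spread and reached into the Dp1Yey range at replicates 1 and 3, and the difference was 0.22 (-0.0011 to 0.43; adjusted p = 0.258), or 0.14 without control replicate 2.

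P2ry12, the nucleotide receptor that steers microglial processes, read 8.08, 8.08, 8.02, 8.06 and 8.03 in Dp1Yey and 8.06, 8.04, 7.98, 7.86 and 7.91 in controls. The groups overlapped, and the difference was 0.08 (-0.01 to 0.17; adjusted p = 0.285). For the rest of this role the differences were small beside their intervals. They were 0.07 (-0.10 to 0.25) for the fractalkine receptor Cx3cr1, 0.07 (-0.07 to 0.21) for the Fc receptor-like gene Fcrls, 0.05 (-0.03 to 0.14) for Csf1r, 0.04 for Gpr34 and 0.03 for Olfml3. With 1 mouse left out, Cx3cr1 ranged from 0.02 (without control replicate 4) to 0.15 (without control replicate 1), Fcrls from 0.02 to 0.10 and Csf1r from 0.03 to 0.07. Tmem119, a membrane protein taken as one of the most specific markers of microglia, had the same mean in both groups (8.57 each, difference -0.00054, interval -0.11 to 0.11). Sall1, the transcription factor that holds microglial identity, differed by -0.05, the P-selectin ligand Selplg by -0.05 and the nucleotide receptor P2ry13 by -0.11 (-0.39 to 0.17). The intervals of Tmem119, P2ry12 and Csf1r leave room for differences up to 0.11, 0.17 and 0.14 in the higher direction.

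**Figure D2:**
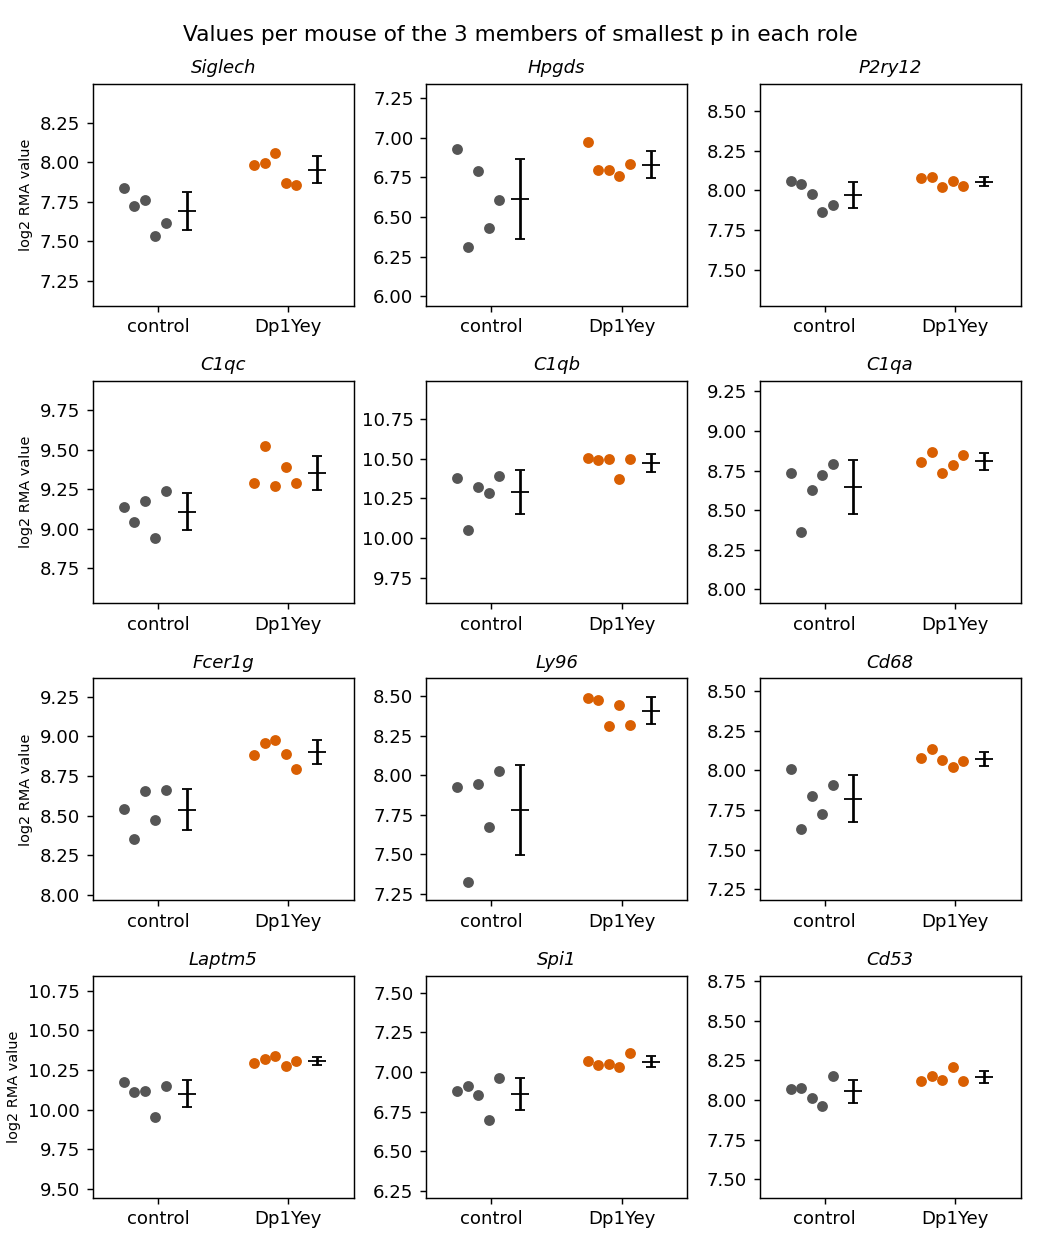
Log2 values (vertical axes) of the 12 members described mouse by mouse, with 1 point per mouse, replicates 1 to 5 of each group from left to right, and the mean with its SD beside them. Each panel spans the same number of log2 units, so that heights of differences can be compared. The groups are widest apart for Ly96 (means 8.41 and 7.78) and overlap for P2ry12, Hpgds, C1qb, C1qa and Cd53.

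Laptm5, a lysosomal membrane protein of blood-derived cells that lies on chromosome 4 from 130912890 to 130936148, was the called gene of the lineage role. Its values were 10.29, 10.32, 10.34, 10.27 and 10.30 in Dp1Yey and 10.17, 10.11, 10.12, 9.95 and 10.15 in controls. The Dp1Yey mice stayed between 10.27 and 10.34, all 5 lay above the controls, and the difference was 0.21 (0.12 to 0.30; limma adjusted p = 0.0455), or 1.15-fold (1.08 to 1.23). Control replicate 4 was far below the other controls, and without it the difference was 0.17 (adjusted p = 0.0559). The call was also lost without any one of Dp1Yey replicates 1 to 5 (adjusted p 0.103, 0.112, 0.125, 0.0778 and 0.0735), control replicate 2 (0.0690) or control replicate 3 (0.0559), and in the fit that took in the interquartile range, where the difference was 0.20 (adjusted p = 0.335).

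Spi1, which encodes PU.1, read 7.07, 7.04, 7.05, 7.03 and 7.12 in Dp1Yey and 6.88, 6.91, 6.86, 6.69 and 6.96 in controls. The groups were separate, and the difference was 0.20 (0.10 to 0.30; adjusted p = 0.0651, or 0.0465 without control replicate 5). It passed the threshold when each array was centred on its median (0.25, adjusted p = 0.025), as did Siglech (0.31, adjusted p = 0.0287). With array weights both passed too (adjusted p = 0.0456 and 0.029), and Spi1 also with quantile normalisation (0.0446). Spi1 did not pass in the fit with a replicate block (0.101) or with the interquartile range (0.417). The tetraspanin Cd53 read 8.12, 8.15, 8.13, 8.21 and 8.12 in Dp1Yey and 8.07, 8.08, 8.01, 7.96 and 8.15 in controls, with control replicate 5 inside the Dp1Yey range and a difference of 0.09 (0.01 to 0.18; adjusted p = 0.228). Irf8, a transcription factor that works with PU.1, went the other way, by -0.09 (-0.21 to 0.03; adjusted p = 0.366), or -0.01 in the fit with the interquartile range, and Ptprc, the leukocyte antigen CD45, differed by 0.01 (-0.07 to 0.09). The median of the 5 lineage genes was 0.09, or 0.14 with that centring.

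To set the roles side by side within a mouse, each member was centred on its control mean and averaged by role. The mean of the sensing genes was 0.16 to 0.23 in the 5 Dp1Yey mice and -0.10 to 0.10 in the controls. For complement it was 0.13 to 0.23 and -0.15 to 0.11, and for the lineage genes 0.05 to 0.12 and -0.10 to 0.04. In these 3 roles every Dp1Yey mouse lay above every control. The margin of the lineage genes was narrow, with 0.047 in Dp1Yey replicate 2 and 0.039 in control replicate 2. For the homeostatic genes the Dp1Yey mice had 0.00 to 0.10 and the controls -0.15 to 0.13, so the groups overlapped. The Dp1Yey mice lay inside the range of the controls, but its upper end was control replicate 1 alone. The other controls had -0.15 to 0.0154, and of the Dp1Yey mice only replicate 4, at 0.0024, lay within those values.

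The homeostatic mean minus the sensing mean was -0.17 to -0.12 in Dp1Yey and -0.11 to 0.11 in controls, and its mean differed by -0.14 between the groups. The values of the groups did not overlap, but the margin was narrow, with -0.118 in Dp1Yey replicate 2 and -0.109 in control replicate 5. In each Dp1Yey mouse the sensing genes exceeded their control mean by more than the homeostatic genes did. No test was run on this average, since the members were chosen with results of these arrays known. The median difference of the homeostatic genes ranged from 0.02 without control replicate 4 to 0.09 with each array centred on its median, and that of the sensing genes was 0.13 in the fit with the interquartile range. The homeostatic minus sensing difference was smaller, at -0.07, in the fit with the interquartile range or without control replicates 1 and 2. Among the controls, replicate 4 was the lowest of all 10 mice for 15 of the 33 members and replicate 2 for 9, while replicates 1 and 5 were the highest control for 13 and 12.

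**Figure D3:**
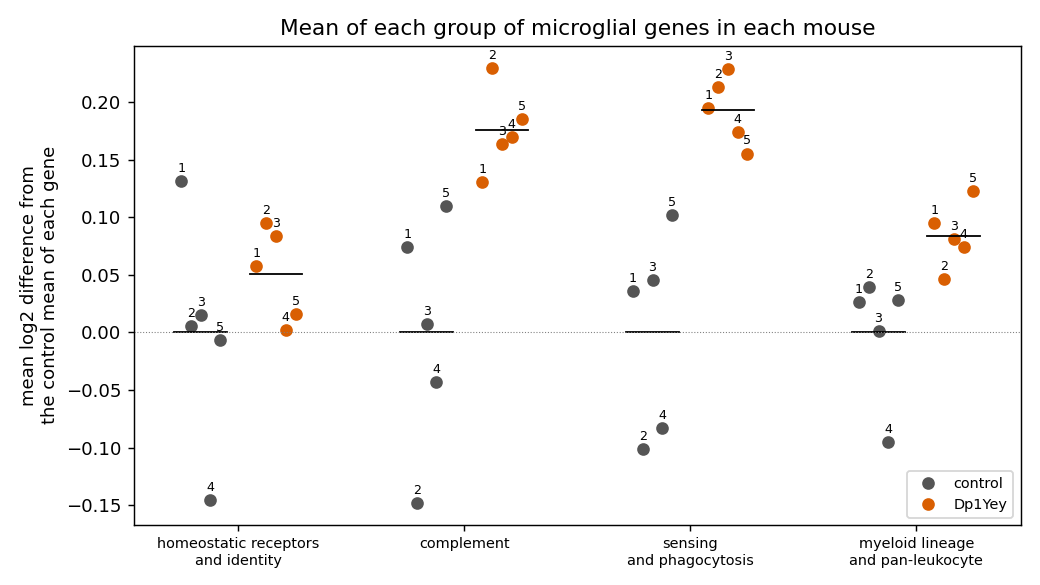
Mean of the members of each role in each mouse (vertical axis, log2 units relative to the control mean of each gene), for the homeostatic, complement, sensing and lineage genes. Points are single mice (5 Dp1Yey, 5 control) with their replicate numbers, and lines the group means. For the homeostatic genes the 5 Dp1Yey mice (0.00 to 0.10) fall within the control range (-0.15 to 0.13), whose upper end is control replicate 1 alone. In the other 3 roles they lie above the control range.

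A rank statistic on fold changes was computed as well, after the one the study used, which ranks every gene in all 25 Dp1Yey-control pairs of mice. It placed 9 members in its upper tail and 0 in its lower tail, where 2.14% of genes outside the interval fell in the upper tail. They were 1 homeostatic gene (Siglech), 1 complement gene (C1qc), 1 lineage gene (Laptm5) and 6 of the 12 sensing genes, namely Ly96, Fcer1g, Tyrobp, Cd68, Ly86 and Fcgr3. In the lists described below, the upper tail held 3 of 20 disease-associated genes and 3 of 12 further complement genes. It also held 3 of 19 genes of the Toll-like receptor pathway, 2 of 12 cytokines and chemokines and 0 of 15 maintenance signals. The lower tail held 0 genes of these lists.

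Other genes of microglial states and their signals were read from lists of their own. The disease-associated state is a programme of genes that microglia switch on around plaques and dying cells. Of its 20 measured genes 11 were higher and 9 lower in Dp1Yey, with a median of 0.02, and 1 was called: Gpnmb, a glycoprotein of lysosomes, at 0.33 (1.26-fold; adjusted p = 0.0265). Igf1, a growth factor of this state, differed by 0.21 (adjusted p = 0.0533), and B2m, the light chain of MHC class I, by 0.31 (adjusted p = 0.116). For all 3 every Dp1Yey mouse lay above every control. The study treats Igf1 as a late response gene of inhibitory neurons, read in visual cortex after light. Which cells of the hippocampus gave its values here was not tested. The call of Gpnmb was lost in 6 of the 10 fits that left out 1 mouse, those without Dp1Yey replicate 2 (adjusted p = 0.0675), 3 (0.0767), 4 (0.0652) or 5 (0.0518) or control replicate 1 (0.0544) or 4 (0.0719), and Igf1 reached the threshold without Dp1Yey replicate 5 (0.0304) or control replicate 3 (0.0498). In the fit that took in the interquartile range Gpnmb was not called (0.30, adjusted p = 0.301). At an unadjusted p under 0.05 the list had 4 higher genes and 0 lower, the fourth being the lysosomal protease Ctsz (0.11). Among the others, lysozyme (Lyz2) differed by 0.21, the lipase Lpl by -0.13, Apoe by -0.07 and Axl by -0.03, and Itgax, Cst7 and Clec7a lay under the floor, where a difference cannot be read.

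Of 12 further complement genes 8 were higher and 4 lower and 0 were called, by limma. The closest were Serping1 (C1 inhibitor, 0.52, adjusted p = 0.0837), C3ar1 (the receptor of C3a, found on microglia, 0.30, adjusted p = 0.0887) and C4b (the C4 component, 0.33, adjusted p = 0.125), and at an unadjusted p under 0.05 there were 3 higher and 1 lower. The groups overlapped in each of these 3. Around Ly96 and Tlr4, 19 genes of the Toll-like receptor pathway were measured, of which 8 were higher and 11 lower. Tlr3, the receptor of double-stranded RNA, was called at 0.23 (adjusted p = 0.0302), a call lost without Dp1Yey replicate 1 (0.0905), 2 (0.0843) or 3 (0.0804) or control replicate 1 (0.0547) or 4 (0.0677) and in the fit with the interquartile range (0.16, adjusted p = 0.364). This list had 3 higher and 4 lower genes with an unadjusted p under 0.05. The lower ones were Tlr8 (-0.12, adjusted p = 0.104, under the floor), with every Dp1Yey mouse below every control, the adaptors Tirap (-0.17) and Ticam2 (-0.08), and Cd14. The adaptor Myd88 differed by 0.20 (adjusted p = 0.0888, or 0.0253 without Dp1Yey replicate 5), and Tlr13, a sensor of bacterial RNA, by 0.23. Cd14, the co-receptor that hands lipopolysaccharide to MD-2, differed by -0.25 (adjusted p = 0.216) and Tlr2 by -0.12.

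The 12 inflammatory cytokines and chemokines were 4 higher and 8 lower, with 0 called by limma and 1 higher at an unadjusted p under 0.05, Il18 (0.24, adjusted p = 0.0763). Tgfb2 differed by -0.18 and the chemokine Ccl2 by -0.14, the latter under the floor, as was Il1b. Among 15 measured genes of the signals that maintain microglia 6 were higher and 9 lower, again with 0 called by limma. At an unadjusted p under 0.05 there was 1 in each direction, the transcription factors Mef2a (0.12, with the groups separate) and Smad3 (-0.12). The Csf1r ligands Csf1 (0.07) and Il34 (-0.02) and the Cx3cr1 ligand Cx3cl1 (-0.0019) differed little. Of 7 measured cell division genes 6 lay at or under the floor. Mki67, the marker of cycling cells, was among these, so its difference of -0.08 was read at background level. Aurkb, above the floor, differed by -0.09 with an unadjusted limma p of 0.152.

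**Figure D4:**
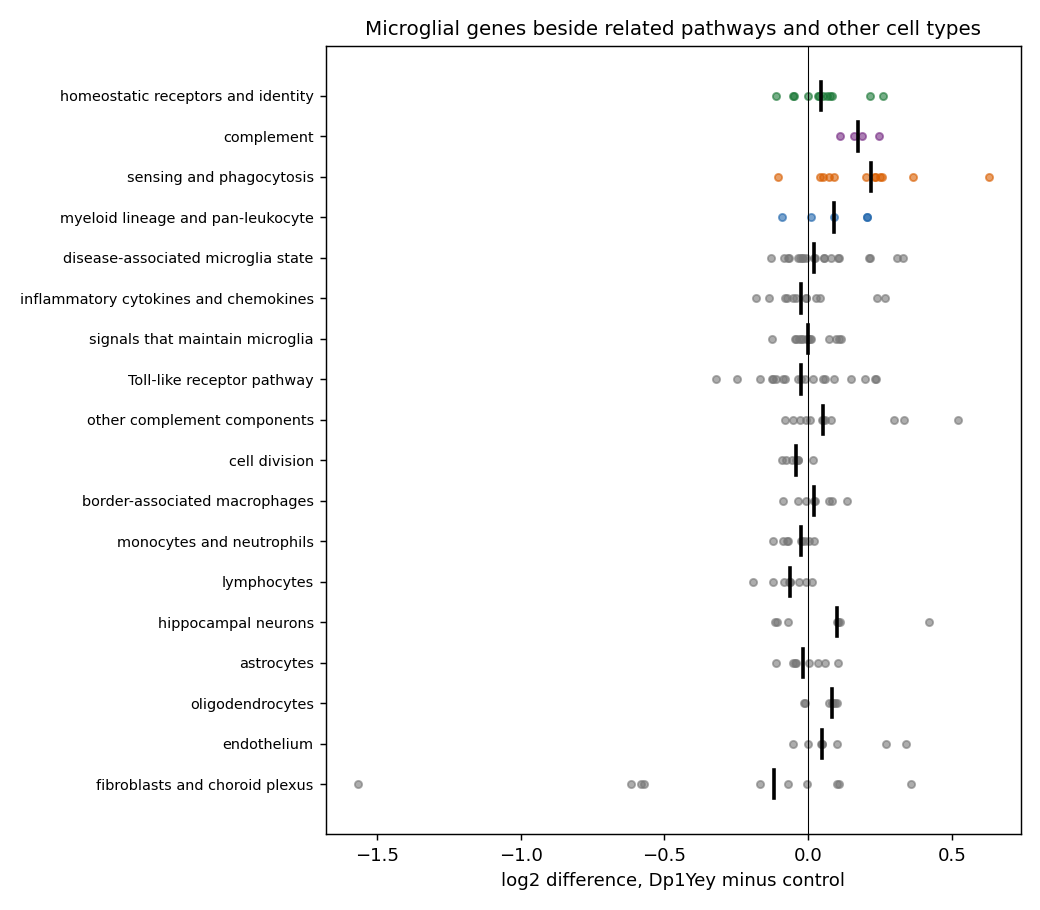
Log2 differences (horizontal axis, Dp1Yey minus control) of the genes of each list, with 1 point per gene and a black bar at the median of the list. The 4 roles of the members are at the top, followed by the other microglial pathways and by markers of other cell types. The medians of the sensing (0.22) and complement (0.17) genes lie to the right of 0, and those of the cytokines (-0.03) and the Toll-like receptor pathway (-0.02) near it.

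Markers of the other cells that a whole hippocampus holds gave 0 calls by limma in each list. By the rank statistic the upper tail held 2 of 8 endothelial markers, 1 of 8 neuronal markers and Alas2 of the red blood cells. Of 10 genes of fibroblasts and choroid plexus it held 1, and the lower tail 3. The other lists of cell types had 0 in either tail. Border macrophages share many genes with microglia, and of their 8 markers 5 were higher and 3 lower. In these arrays 4 of the 8, Mrc1, Cd163, Pf4 and Ms4a7, lay under the floor. Stab1, a scavenger receptor among them, differed by 0.13 (adjusted p = 0.0881), with the groups separate. The per-mouse mean of that list was -0.04 to 0.14 in Dp1Yey and -0.07 to 0.06 in controls. For monocytes and neutrophils 7 of 9 markers lay at or under the floor, S100a8 and Ccr2 included, and 2 were higher and 7 lower, with per-mouse means of -0.08 to -0.01 in Dp1Yey and -0.05 to 0.09 in controls. Lymphocyte markers had 6 of 9 at or under the floor, with 1 higher and 8 lower, and per-mouse means of -0.11 to -0.03 in Dp1Yey and -0.06 to 0.15 in controls. Members of the myeloid lineage role, such as Laptm5 and Cd53, are also used by blood leukocytes. Whether blood leukocytes have a part in the differences of these members was not tested.

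Of the genes of red blood cells only Alas2 was measured, at a difference of 0.56 (adjusted p = 0.165) with widely spread controls (-0.67 to 0.70 around their mean, against 0.26 to 0.80 in Dp1Yey), and its part in the microglial differences was not tested. Neuronal markers of the hippocampus, 8 in number, all lay above the floor, and 5 were higher and 3 lower, with a median of 0.10. Wfs1, a marker of CA1 pyramidal cells, differed by 0.42 (1.34-fold; adjusted p = 0.0533), more than any member but Ly96 on the log2 scale, with every Dp1Yey mouse above every control, and Neurod6 differed by 0.10 with an unadjusted p of 0.0468. The astrocyte list was 4 higher and 4 lower, with Gfap at 0.10 (adjusted p = 0.179) and its groups separate. Endothelial markers were 6 higher and 2 lower, led by Slco1a4 (0.34, adjusted p = 0.0586) and Tek (0.27). The groups were separate for Slco1a4 and overlapped for Tek. Oligodendrocyte markers were 5 higher and 2 lower. Genes of the fibroblasts and choroid plexus, which border the dissected tissue, had per-mouse means of -0.52 to 0.49 in controls and -0.64 to 0.09 in Dp1Yey. Of these 10 genes 3 were higher and 7 lower, from -1.57 to 0.36 with a median of -0.12, and 4 of the lower and 1 of the higher had an unadjusted p under 0.05. The choroid plexus genes Folr1 (-0.62, adjusted p = 0.137), Kl (-0.58, adjusted p = 0.151) and Otx2 (-0.57, adjusted p = 0.221) led the list. Folr1 read 8.16, 7.14, 6.94, 7.79 and 7.88 in control replicates 1 to 5 and 6.84 to 7.10 in Dp1Yey, so that controls 2 and 3 were close to the Dp1Yey mice and controls 1, 4 and 5 stood above them. Whether the amount of any of these tissues has a part in the microglial differences was not tested.

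The duplicated interval itself holds genes that act in microglia and other immune cells, and these are carried at 3 copies by the Dp1Yey mice. Ifngr2, a chain of the interferon γ receptor, differed by 0.43 (1.35-fold; limma adjusted p = 9.1e-05) and Il10rb, a chain of the receptors of interleukin 10 and related cytokines, by 0.63 (1.55-fold; adjusted p = 0.000995). In both, every Dp1Yey mouse lay above every control. Runx1, a transcription factor of blood and microglial development in the same interval, differed by 0.03 (adjusted p = 0.730).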

How the data were processed

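RNA from 10 hippocampi (5 Dp1Yey, 5 control) was read on Affymetrix Mouse Gene 1.0 ST arrays. The values deposited by the authors are log2 intensities from RMA (background correction, quantile normalisation across arrays, 1 value per probe set). RMA, limma and the build mm10 are named in the processing notes of the submitters. The set of arrays that went into 1 normalisation is not stated there, and scanner files were not used here.

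Of 35556 probe sets, 21789 carried 1 gene symbol and 1621 several, while the platform annotation did not list the other 12146. Each gene was read from its single-symbol probe set of highest mean, which left 19938 genes. A further 3 probe sets that name a member beside another gene were not used. Positions and promoters came from RefSeq (GRCm38.p6), and 19855 genes had a position. Among promoter windows on opposite strands that overlap, 1683 of 1683 matched as reverse complements, as a check of their strand.

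The fit used limma (version 3.58.1, R 4.3.3) with group as the only factor (lmFit, eBayes, two-sided, Benjamini-Hochberg over all genes, called under 0.05). The rank statistic took, per gene, the trimmed mean (share 0.25) of its scaled ranks over 25 pairs of mice. Its place in a normal distribution, with the mean and SD of all genes, gave a probability, which was called at or above 0.975 or at or below 0.025. Arrays give no read depth, and 5 arrays per group limit the precision. The labels do not give the litters. The script was tested on simulated data.

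Members, gene lists, tests and alternatives were chosen with earlier results of these data known. Values per mouse were given for called members, for the 3 members of smallest p per role and for the C1q chains. From each other list up to 3 genes of smallest p were named by rule, and further genes were named for their known role, after their values were seen. Alternatives covered normalisation, filtering, probe sets, variance model, weights of arrays, a replicate block, array interquartile range, single arrays left out, controls 1 and 2 left out and the rank statistic.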

Additional observations from a re-analysis of the deposited data

Results flagged for a closer look

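In 6 of 80 sets of 5 values (each member, the mean of each role and of all members, and 2 differences between role means, in each group), 1 mouse lay far from the other mice of its group, by the gap to its nearest neighbour relative to the range. Chance alone gives such a gap in about 5 of every 100 sets. Control replicate 4 was the lowest control for Csf1r (9.50, others 9.62 to 9.64), for Laptm5 (9.95, others 10.11 to 10.17) and for the mean of the lineage genes (-0.095, others 0.0014 to 0.039), of which Laptm5 is one. Control replicate 1 was the lowest control for Tlr4 (5.17, others 5.24 to 5.28), a gene under the floor, and the highest for Csf3r (6.52, others 6.29 to 6.35). Dp1Yey replicate 4 was the lowest of its group for C1qb (10.37, others 10.49 to 10.51).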

How the results depend on the processing

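The direction of 27 members being higher varied little, from 25 to 29 members over the alternatives. In the fit limited to genes above the floor the count was 25 of 31 members, since Gpr34 and Tlr4 were left out. The medians of the complement and sensing roles stayed above 0 in all alternatives. The number of called members, 3, was 4 with quantile normalisation, 5 with each array centred on its median and 6 with array weights. It was 9 by the rank statistic, 1 with the replicate block and 0 when the interquartile range was a covariate. With 1 mouse left out it was 0 to 5 (0 without control replicate 4 or Dp1Yey replicate 2 or 3, 1 without Dp1Yey replicate 1 or 4, 5 without control replicate 1). The median of the lineage genes was 0.14 with median centring. In the limma fit with that covariate the smallest adjusted p of a member was 0.154 (Fcer1g), while 8 members had an unadjusted p under 0.05, all with a higher mean in Dp1Yey. In that fit the median of the sensing genes was 0.13, and the homeostatic minus sensing difference -0.067. The cause was not tested.

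The replicate numbers did not pair the mice: deviations of same-numbered mice correlated at 0.062, 0.0075, 0.040, 0.22 and -0.33, and only 1 number (4) was its own best match. With that block the called member was Siglech (adjusted p = 0.0408), and Fcer1g (0.0638), Ly96 (0.0702), Laptm5 (0.0942) and, outside the members, Tlr3 (0.114) were not called.

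Small differences changed sign. Tmem119 was 0.046 with median centring, 0.015 with array weights and, with 1 mouse left out, -0.032 to 0.032. Trem2 was -0.041 in the fit with the interquartile range, while P2ry13 0.057 without control replicates 1 and 2. With 1 mouse left out, Ptprc ranged from -0.0064 to 0.036 (-0.00090 without control replicate 5), Selplg from -0.080 to 0.0079 and Olfml3 from -0.018 to 0.078. No alternative scaling moved the median of all genes outside -0.022 to 0.032. Values under the floor, those of Gpr34 and Tlr4, limit what can be said of these genes.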
